A study of Mus musculus with 6 samples.

Results

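The p53 family and its 2 closest regulators were followed in mouse colorectal tumor organoids under chemotherapy. The set is 5 genes chosen by name, Trp53, Trp63 and Trp73, which encode the transcription factors p53, p63 and p73, and Mdm2 and Mdm4, which encode the proteins that hold p53 in check. All 5 have a row in the count table of 24190 genes. RNA was sequenced from 6 samples of MTO54, 1 line of mouse tumor organoids (MTOs) of the genotype labelled AKP, so controls and treated samples carry the same alleles. The 3 control samples stayed in complete stem cell medium, and the 3 Folfiri samples received 5FU (50 μg/μl, a unit copied from the labels) with SN38 (100 nM) for 2 days, beginning 2 days after seeding. That duration is the one in the labels, and another passage of the study gives a longer one. 5FU disturbs thymidylate synthesis, and SN38, the active form of irinotecan, inhibits topoisomerase I. Mouse age is not given in the sources used here.

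p53 is held at a low protein level in unstressed cells because Mdm2, a ubiquitin ligase, marks it for degradation, and because Mdm4, a relative of Mdm2 with little ligase activity of its own, covers its activation domain. DNA damage relieves both brakes through changes to the proteins, and active p53 then switches on Mdm2 itself, which closes a feedback loop, along with genes for cell cycle arrest, DNA repair and apoptosis. p63 is the family member of basal and squamous epithelium, p73 acts in multiciliated and neural cells, and neither is a usual marker of intestinal epithelium. This background is on intact p53, and whether it holds in the line was not tested. Counts per gene do not tell which exons held the reads, so the values below cannot check the genotype of the line or tell an intact transcript from an altered one.

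The members lie on 5 chromosomes (GRCm38, GENCODE vM21 gene models). Trp53 (ENSMUSG00000059552) spans bases 69580359 to 69591873 of chromosome 11 on the plus strand, with 4045 bp of exons. Trp63 (ENSMUSG00000022510) runs from 25683763 to 25892102 on chromosome 16, plus strand, with 8391 bp. Trp73 (ENSMUSG00000029026) lies on the minus strand of chromosome 4, from 154056253 to 154140208, with 5534 bp. Mdm2 (ENSMUSG00000020184) occupies 117688875 to 117710758 of chromosome 10, minus strand, with 5083 bp. Mdm4 (ENSMUSG00000054387) occupies 132959484 to 133030561 of chromosome 1, minus strand, with 14798 bp. No other annotated gene overlaps Trp53 or Mdm2. Mdm4 holds Gm29257, a processed pseudogene on the opposite strand that shares no exonic base with it. Trp63 holds Gm24928, an snRNA gene with 1 count in all, and the pseudogene Gm27005, and Trp73 overlaps Trp73os and the snoRNA gene Gm26036, the last 3 of which were not analysed here.

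The sequence around the starts of the 3 tested members is shown here. Any link between it and the direction of change was not tested. The windows, from RefSeq annotation of GRCm38.p6, hold 300 bases on the gene's strand, 250 before the annotated start and 50 from it on, and the first 280 of each are printed. Capitals mark matches to the E-box CACGTG, the GC box GGGCGG, the CCAAT box, the TATA box TATAAA and the p53 decamer, each searched on both strands. The motifs were chosen after the sequences had been seen.
Trp53, chr11:69580109-69580388, plus strand: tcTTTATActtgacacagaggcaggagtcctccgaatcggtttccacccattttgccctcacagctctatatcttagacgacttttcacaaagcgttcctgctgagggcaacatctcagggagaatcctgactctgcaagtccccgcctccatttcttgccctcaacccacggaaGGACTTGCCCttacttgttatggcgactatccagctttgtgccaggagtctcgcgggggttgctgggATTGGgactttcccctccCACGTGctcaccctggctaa
Mdm2, chr10:117710729-117711008, minus strand: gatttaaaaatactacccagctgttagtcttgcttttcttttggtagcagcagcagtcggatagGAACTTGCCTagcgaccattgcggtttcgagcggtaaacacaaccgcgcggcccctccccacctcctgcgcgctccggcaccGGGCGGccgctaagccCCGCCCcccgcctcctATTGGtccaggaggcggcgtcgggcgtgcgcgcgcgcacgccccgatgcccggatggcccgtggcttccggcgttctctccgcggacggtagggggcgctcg
Mdm4, chr1:133025387-133025666, minus strand, the downstream of 2 annotated starts: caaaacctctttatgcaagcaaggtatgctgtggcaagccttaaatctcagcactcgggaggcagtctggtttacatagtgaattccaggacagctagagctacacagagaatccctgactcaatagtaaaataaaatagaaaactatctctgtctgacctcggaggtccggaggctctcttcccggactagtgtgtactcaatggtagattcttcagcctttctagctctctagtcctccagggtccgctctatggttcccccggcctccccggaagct

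The Trp53 window matched the E-box, which 7.15% of all 32851 windows hold, the CCAAT box (37.4% of windows) and the TATA box (13.6%), the last of them far upstream of the start. No match in the windows printed shares a base with another. The Mdm2 window matched the GC box at 2 places (35.7% of windows hold at least 1) and the CCAAT box once. A p53 decamer, which is one part of a full p53 response element, was matched once in the Trp53 window and once in the Mdm2 window, as in 8.36% of all windows. The Mdm4 window matched none of the motifs, nor did the window of its upstream start. Over the 300 bases, the Mdm2 window held 35 CpG dinucleotides, more than 93.0% of windows, against 10 for Trp53, 9 for Mdm4 and 4 at the upstream start of Mdm4. A match is a run of letters and not a shown binding site. Sequence outside the windows was not searched.

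Depth ranged from 22103591 to 30098210 counts per sample. The levels below are CPM, that is counts relative to library size, scaled by TMM, a correction for differences in library composition, and fold changes, standard errors (SE) and adjusted p-values come from edgeR's quasi-likelihood test with Benjamini-Hochberg adjustment over 14692 tested genes. Folfiri changed most of the transcriptome at the 0.05 threshold, with 79.1% of tested genes called, 40.3% higher and 38.8% lower, so a call for a single gene is the common outcome here. Groups that do not overlap were likewise found for 81.4% of tested genes. The study calls the replicates of each condition biological, without saying in the sources used here whether they were separate cultures, passages or wells, and p-values measure the spread between these samples of 1 line. Control 1 stood apart from controls 2 and 3, and Folfiri 3 from Folfiri 1 and 2, with count differences per gene well beyond sampling noise. Of 10 intestinal epithelium markers, 9 were above 1 CPM in both groups (Cdx1 was not, at 0.519 ± 0.162 CPM in controls), and their summed level was 5978 to 6947 CPM in controls and 4818 to 4992 CPM after Folfiri. Fibroblast, endothelial and immune markers were mostly near 0, apart from Cdh5 at 89.8 ± 29.8 and 70.6 ± 5.43 CPM and Cd68 at 23.6 ± 2.53 and 20.5 ± 0.583 CPM, neither of them called. Of 8 tested, 4 were called higher and 1 lower (edgeR), and S100a8 rose from 0.913 ± 0.294 to 5.22 ± 0.706 CPM, Ptprc from 0.396 ± 0.0625 to 1.06 ± 0.103 CPM, Pdgfra from 0.397 ± 0.117 to 1.14 ± 0.176 CPM and Dcn from 0.0240 ± 0.0416 to 0.694 ± 0.126 CPM. Their part in the results below was not tested. In bulk RNA, fewer cells of a type and less RNA per cell cannot be told apart.

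Of the 5 members, 3 passed the filter on low counts, and 2 of those 3 were called, Trp53 higher and Mdm4 lower, against the 79.1% of all genes. Mdm2 did not pass the threshold. Trp63 and Trp73 fell below the filter and were not tested in this fit.

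**Figure D1:**
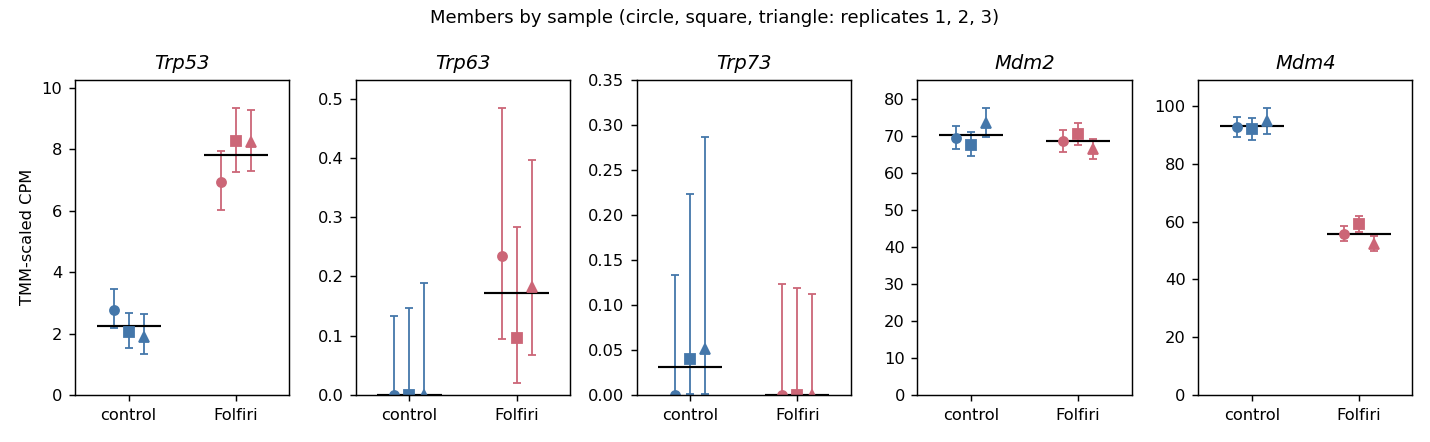
TMM-scaled CPM (vertical axes, 1 scale per gene, all from 0) of the 5 members in the 3 control samples (blue) and the 3 Folfiri samples (red). Points are samples, black lines are group means and bars are 95% Poisson intervals, which cover counting error only. Trp53 is higher in each Folfiri sample than in each control, Mdm4 is lower, Mdm2 overlaps, and Trp63 and Trp73 lie near 0.

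Trp53, the tumor suppressor gene itself, rose from a low level. Its controls held 77, 51 and 37 counts, or 2.77, 2.04 and 1.90 CPM. The Folfiri samples held 207, 256 and 272 counts, or 6.94, 8.26 and 8.25 CPM. The lowest Folfiri sample was above the highest control, and control 1 was the highest of its group. The group mean (± SD, n = 3 per group) went from 2.24 ± 0.468 to 7.82 ± 0.760 CPM. The log2 fold change was 1.79 (SE 0.17, 95% interval 1.41 to 2.16), or 3.45-fold, with an adjusted p of 3.11e-06 in edgeR's quasi-likelihood test. Of all tested genes, 92.0% had a lower log2 fold change.

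The Trp53 control values rest on few reads, and the coefficient of variation among controls, 20.9%, was larger than among Folfiri samples, 9.72%. The 95% Poisson interval of control 1, 2.19 to 3.47 CPM, did not reach that of Folfiri 1, 6.03 to 7.95 CPM. Leaving out any 1 sample gave log2 fold changes from 1.68 to 1.98.

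Mdm4, the inhibitor of p53 activation, fell. Controls stood at 92.8, 92.2 and 94.8 CPM, from 2576, 2305 and 1844 counts. Folfiri samples stood at 55.9, 59.1 and 52.4 CPM, from 1666, 1832 and 1728 counts. The groups were far apart relative to their spread, with means of 93.3 ± 1.39 CPM and 55.8 ± 3.35 CPM for control and Folfiri (SD, n = 3 per group). The log2 fold change was -0.74 (SE 0.07, 95% interval -0.90 to -0.58), or 1.67-fold lower, with an adjusted p of 3.90e-06 in edgeR's quasi-likelihood test. Of all tested genes, 23.8% had a lower log2 fold change.

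The pseudogene inside Mdm4, Gm29257, was lower as well, at 61.0 ± 8.18 CPM in controls and 22.7 ± 0.934 CPM after Folfiri (log2 fold change -1.42, adjusted p 5.00e-07, edgeR). It shares no exon with Mdm4, and the library kit did not mark strand.

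Mdm2, the ubiquitin ligase and classic p53 target, differed by less than the spread between its replicates. Controls gave 69.4, 67.6 and 73.5 CPM, and Folfiri samples gave 68.5, 70.5 and 66.4 CPM, so the groups overlap. The means were 70.2 ± 3.02 and 68.5 ± 2.07 CPM (SD, n = 3 per group). The log2 fold change was -0.03 (SE 0.07) with an adjusted p of 0.664 in edgeR's quasi-likelihood test, and the 95% interval ran from -0.19 to 0.12, that is from 0.877-fold to 1.09-fold. Depth was not the limit here, with 1429 to 2188 counts per sample.

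Scaling mattered for Mdm2. By total counts alone its log2 fold change was 0.24 (adjusted p 0.0129, edgeR). That scaling also moved the median of all tested genes from 0.02 to 0.30, and the share of calls that were higher from 51.0% to 63.3%. Relative to the median, Mdm2 was at -0.06 under TMM and -0.05 under total counts, Trp53 at 1.77 and 1.76, and Mdm4 at -0.76 under both. Values relative to the median take the typical gene as unchanged, which was not tested.

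**Figure D2:**
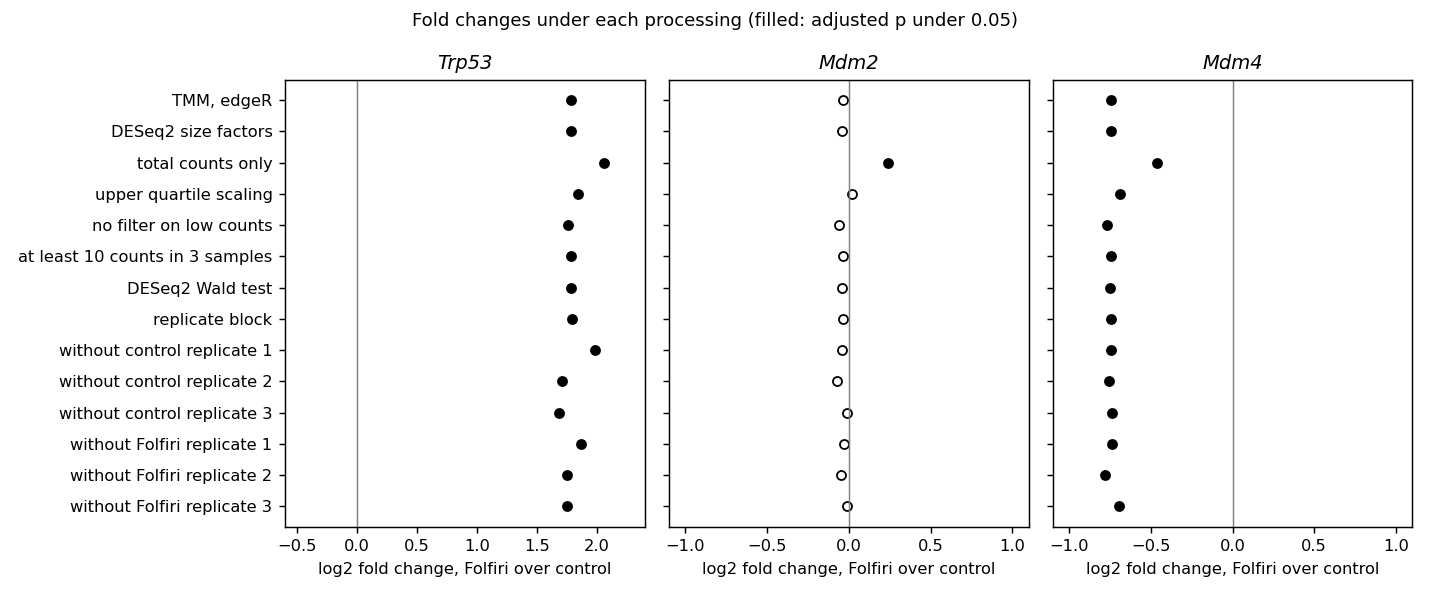
Log2 fold change of Trp53, Mdm2 and Mdm4, Folfiri over control (horizontal axes), under each way of processing the counts (rows), with filled points for an adjusted p under 0.05. Trp53 stays between 1.68 and 2.06 and Mdm4 between -0.78 and -0.46, while Mdm2 stays near 0 except under total counts only, at 0.24.

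Trp63 was seen only at the edge of detection. The 3 controls held 0 counts each, and Folfiri samples 1, 2 and 3 held 7, 3 and 6 counts, or 0.235, 0.0968 and 0.182 CPM. The sum of 16 counts has a 95% Poisson interval of 9.15 to 26.0. Against a floor of 3 counts over the control group (0.0415 CPM), the level after Folfiri was at least 4.11-fold higher, a bound that takes the 16 counts at face value. With the lower Poisson limit in their place it was 2.35-fold. Without control 1 the bound fell to 2.53-fold and without control 2 to 2.69-fold, because the floor scales with the depth left. The gene fell below the low-count filter and so has no test in the main comparison.

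Trp63 marks basal and squamous epithelium, and other markers of that tissue are given beside it. Of 10 such markers 7 were tested, with 4 higher and 2 lower. Krt5, a basal keratin, rose from 0.679 ± 0.113 to 2.81 ± 0.239 CPM and Dsg3, a desmosomal cadherin, from 1.80 ± 0.507 to 11.4 ± 1.12 CPM. Trim29 fell from 80.8 ± 7.03 to 5.49 ± 1.07 CPM. The summed level of the list was 114 to 140 CPM in controls and 56.6 to 65.9 CPM after Folfiri. Without Trim29, a sum added after seeing the data, the ranges were 40.6 to 52.99 CPM and 51.5 to 59.2 CPM, which overlap. Sprr1a, the other marker called lower, made up most of that sum in each control. Its level was 28.0, 42.7 and 34.9 CPM in controls and 23.8, 19.5 and 19.5 CPM after Folfiri. The overlap thus does not show that the remaining markers were unchanged. Krt14, the partner keratin of Krt5, was at 0.811 ± 0.303 and 1.15 ± 0.0579 CPM and was not called. Their part in the Trp63 reads was not tested.

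Trp73 was not detectable above background at this depth. Controls held 0, 1 and 1 counts and each Folfiri sample 0, which allows up to 0.0320 CPM for 3 counts over the group. No fold is given. Of 9 multiciliated cell markers, 3 were tested and 2 of those were lower, among them Rfx3, at 25.0 ± 1.97 and 8.15 ± 1.35 CPM. Foxj1, the defining factor of that cell type, was near 0 in both groups, at 0.178 ± 0.0229 and 0.0219 ± 0.0190 CPM. The antisense gene Trp73os shares 280 bp of exons with Trp73.

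Per kilobase of exon, the order of levels in controls was Mdm2, at 13.8 ± 0.594 CPM per kb, then Mdm4 at 6.30 ± 0.0938 and Trp53 at 0.553 ± 0.116. Trp73, at 0.00551 ± 0.00488, and Trp63, at 0, could not be ordered. After Folfiri, the levels were 13.5 ± 0.407 CPM per kb for Mdm2, 3.77 ± 0.226 for Mdm4, 1.93 ± 0.188 for Trp53, 0.0204 ± 0.00829 for Trp63 and 0 for Trp73. The order of Mdm2, Mdm4 and Trp53 was the same in all 6 samples, with no overlap between neighbours. Of tested genes, 16.5% lay below Trp53 per kilobase in controls and 31.4% after Folfiri, while Mdm4 moved from above 55.9% to above 43.4%, and Mdm2 stayed above 72.4% and 72.3%.

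Count ratios within samples restate the changes of Mdm2, Mdm4 and Trp53 given above and are not a further result. Such ratios do not depend on how libraries are scaled. The count ratio of Mdm2 to Mdm4 was 0.748, 0.733 and 0.775 in controls and 1.23, 1.19 and 1.27 after Folfiri. Mdm4 thus had the larger count in each control and Mdm2 in each Folfiri sample. Mdm4 has 14798 bp of exons against 5083 bp for Mdm2, so equal counts are not equal levels. Per kilobase, Mdm2 was above Mdm4 in every sample. The log2 ratio went from -0.41 ± 0.04 to 0.30 ± 0.04 (SD, n = 3 per group), a difference of 0.71, or 1.63-fold, with a two-sided exact permutation p of 0.1, the smallest that 3 against 3 can give.

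Mdm2 counts per Trp53 count were 25.0, 33.1 and 38.6 in controls and 9.87, 8.54 and 8.04 after Folfiri. The log2 ratio fell from 4.99 ± 0.32 to 3.14 ± 0.15 (SD, n = 3 per group), or 3.62-fold lower, again with an exact permutation p of 0.1. The groups did not overlap in either ratio.

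**Figure D3:**
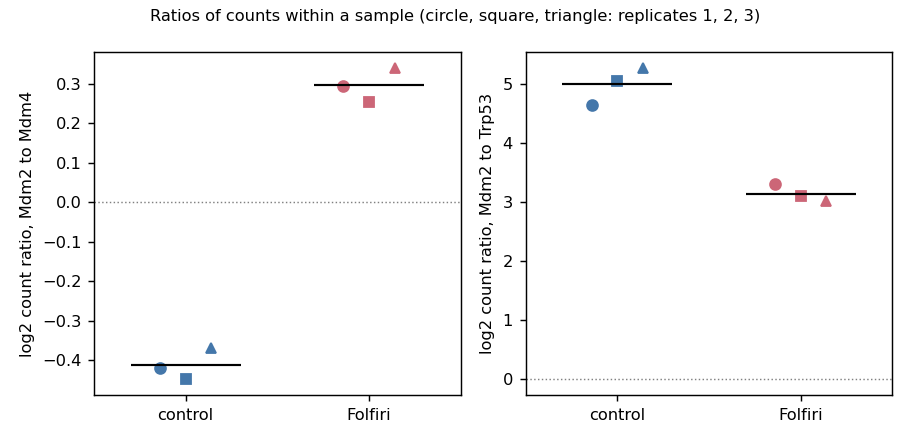
Log2 ratio of counts within each sample (vertical axes), Mdm2 to Mdm4 on the left and Mdm2 to Trp53 on the right, with 1 point per sample, black lines for group means and a dotted line at equal counts. Mdm2 to Mdm4 crosses from below to above equal counts, and Mdm2 to Trp53 falls while staying above that line. Equal counts are not equal levels, because the genes differ in exonic length.

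Each tested member has near neighbours among the 10733 genes whose mean reached 5 CPM, by Euclidean distance between centred log2 profiles over the 6 samples. Closest to Trp53 were Mak16, a ribosome biogenesis factor (distance 0.107), Sumf2 (0.108) and Gm16433, a processed pseudogene (0.123). Mak16 went from 15.8 ± 3.03 to 48.8 ± 2.69 CPM. Closest to Mdm4 were Sec63, a protein translocation factor of the endoplasmic reticulum (0.0580), Tnfaip8 (0.0760) and Scamp1 (0.0785), and closest to Mdm2 were Mms22l, a replication fork repair gene (0.0525), Zfp81 (0.0624) and Sh3bgrl (0.0629).

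Genes around the members were grouped in 7 lists that place them in their pathway. Each list is described by its counts and median log2 fold change, beside 79.1% called and a median of 0.02 over all tested genes, and the gene examples said to be higher or lower passed edgeR's quasi-likelihood test, with adjusted p-values up to 0.00882.

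**Figure D4:**
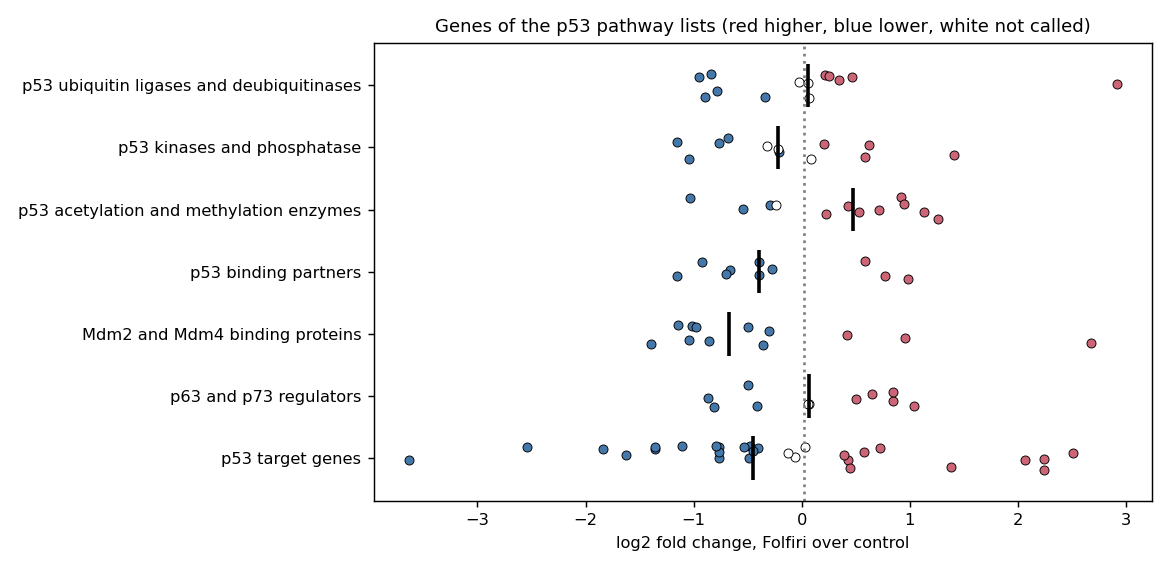
Log2 fold change, Folfiri over control (horizontal axis), of each tested gene in the 7 pathway lists (rows), red if called higher, blue if called lower and white if not called. Black bars are list medians and the dotted line is the median of all tested genes, 0.02. The list of Mdm2 and Mdm4 binding proteins has the lowest median, -0.68, and the acetylation and methylation enzymes the highest, 0.48. Lower genes in the former list include the ribosomal proteins Rpl5, Rpl11, Rpl23, Rps7 and Rps14.

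The p53 target genes moved both ways. Of 30 listed, 29 were tested, 10 were higher, 16 lower and 3 not called, with a median log2 fold change of -0.45. Among the lower genes were Gdf15, a stress cytokine, from 126 ± 18.8 to 10.1 ± 0.785 CPM (12.4-fold lower), and Cdkn1a, the cyclin-dependent kinase inhibitor p21, from 256 ± 18.9 to 82.7 ± 4.95 CPM (3.09-fold lower). Bbc3, which encodes the proapoptotic protein Puma, fell from 23.0 ± 7.83 to 3.92 ± 0.139 CPM, and Gadd45a, a DNA damage response gene, from 44.2 ± 7.49 to 12.3 ± 1.37 CPM. Both Cdkn1a and Gadd45a share exonic bases with a gene on the other strand, 7.68% and 19.1% of their length.

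The higher p53 targets were led by Aen, an apoptosis-enhancing nuclease, from 6.18 ± 2.74 to 35.7 ± 1.58 CPM (5.69-fold). Tigar, a regulator of glycolysis, rose from 6.57 ± 2.53 to 31.5 ± 0.832 CPM, Plk2, a polo-like kinase, from 26.4 ± 0.285 to 124 ± 3.82 CPM, and Pidd1, a scaffold of the PIDDosome, from 4.36 ± 1.52 to 11.5 ± 0.876 CPM. Mdm2, itself a target, lay between these groups. Eda2r was too low to be tested.

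The Mdm2 and Mdm4 binding proteins were all called, 3 higher and 9 lower of 12, with a median of -0.68. Ribosomal proteins that bind Mdm2 were lower, namely Rpl5 (2.64-fold), Rpl11, Rpl23, Rps7 and Rps14 (2.22-fold, 847 to 382 CPM). Their log2 fold changes, from -1.40 to -0.98, all lay below the list median, so they weigh on it. Ribosomal protein genes have many processed copies in the genome, so their counts are uncertain, and Rpl5 shares 24.3% of its exonic length with Fam69a. Gnl3, which encodes the nucleolar protein nucleostemin, rose 6.37-fold, from 35.6 ± 7.51 to 227 ± 11.3 CPM, and Ncl, nucleolin, 1.94-fold. Cdkn2a, the locus of the Mdm2 inhibitor Arf and of p16, fell from 140 ± 15.9 to 113 ± 5.34 CPM (log2 fold change -0.30), and counts per gene do not separate its products.

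Enzymes that act on p53 divided in both directions. Of 13 ubiquitin ligases and deubiquitinases, 5 were higher, 5 lower and 3 not called (median 0.06). Huwe1, a ubiquitin ligase, was 1.86-fold lower and Stub1, a chaperone-linked ligase that shares 42.3% of its exons with Jmjd8, 1.93-fold lower, while Usp10 (1.38-fold) and Topors (1.27-fold) were higher. Cul9, a cullin ligase that binds p53, was higher from a level near 0, at 0.0558 ± 0.0223 and 0.446 ± 0.0669 CPM. Without Folfiri replicate 3, the number higher in this list was 3. Of 12 kinases and phosphatase genes, 4 were higher and 5 lower (median -0.22). Chek1, a checkpoint kinase, rose from 12.9 ± 1.75 to 34.4 ± 0.734 CPM and Ppm1d, the phosphatase that acts on p53, 1.54-fold, whereas Atr, the replication stress kinase, fell from 36.3 ± 5.62 to 16.4 ± 1.27 CPM and Plk3 2.06-fold.

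Acetylation and methylation enzymes were mostly higher, 8 of 12, with 3 lower and a median of 0.48. Setd7, a lysine methyltransferase, rose 2.39-fold and Hdac1, a deacetylase, 2.19-fold, while Kat2b, an acetyltransferase, fell 2.05-fold and Smyd2, a methyltransferase with exons that overlap Gm37422 on the other strand, 1.46-fold. Of 10 p53 binding partners, 3 were higher and 7 lower (median -0.39, 4 lower under total counts only). Bcl6, a transcriptional repressor, rose 1.98-fold and Zbtb17 1.71-fold, and Ing1 fell 2.22-fold and Twist1 1.90-fold.

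Regulators of p63 and p73 were tested as well, though both genes sat at or near 0. Of 11, 5 were higher and 4 lower (median 0.07). Itch and Wwp1, ubiquitin ligases of p63, fell 1.76-fold and 1.82-fold, and Id2 and E2f3 rose 2.05-fold and 1.80-fold.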

How the data were processed

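RNA was poly(A)-selected, and libraries were made with a kit that does not mark strand. The authors aligned reads with STAR (version 2.5.2 per the submitters' processing notes) to mouse GRCm38/mm10 with GENCODE vM25, with Sambamba for sorting and Rsubread for counting per gene, and deposited raw counts. The strand setting and the treatment of reads with several positions are not given in the sources used here, so overlapping genes and genes with near-identical copies are uncertain.

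From the counts as deposited, edgeR 4.0.16 (R 4.3.3) was run with its default filter, TMM and the quasi-likelihood test on all 6 samples, with p-values adjusted by Benjamini-Hochberg and called under 0.05. Levels are TMM-scaled CPM, per kb of union exonic length from GENCODE vM21 where said, in which 24168 of 24190 genes matched. Ratios were tested by exact permutation. The 95% Poisson intervals and the floor of 3 counts cover counting error only. Total counts per sample were 22103591 to 30098210. The fit was also run on simulated counts in which most genes were unchanged. With 79.1% of tested genes called here, that run cannot vouch for the fit in this setting. RefSeq windows were found for 4 of the 5 members.

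The members and lists were chosen with earlier results of these data known. The genes named were the 5 members, genes overlapping them, the 3 nearest profiles of each tested member, and per list up to 2 genes in each direction (4 for p53 targets) with the largest called change, at least 5 CPM on average and groups that do not overlap. Cdkn2a, Cul9, Eda2r, Rpl11, Rpl23, Rps7 and the marker genes were named after their values were seen. The altered genes of the AKP genotype are not reported here. Alternatives were other scalings and filters, the Wald test of DESeq2 1.42.0, the replicate number as a block and each replicate left out.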

Additional observations from a re-analysis of the deposited data

How the results depend on the processing

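Trp53 kept its rise and Mdm4 its fall, both past the threshold, under other scalings and filters, the DESeq2 Wald test, the replicate block and each replicate left out. Mdm2 changed sign to a log2 fold change of 0.24 (adjusted p 0.0129, edgeR) under total counts only and was at 0.02 (adjusted p 0.782, edgeR) under upper quartile scaling. The log2 bound of Trp63 (2.04) became a fitted value of 5.27 without a filter (adjusted p 0.00195, edgeR) and 4.46 in DESeq2 (adjusted p 0.0119), neither of which is a bound, and ran from 1.34 to 2.32 with 1 replicate left out. Trp73 gave no value. List counts stayed within 1.5 times in 180 recomputations and moved further in 2, the number of ubiquitin ligases and deubiquitinases higher (3 against 5, without Folfiri replicate 3) and of p53 binding partners lower (4 against 7, total counts only).

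Replicate numbers did not pair the samples: the deviations of same-numbered samples correlated at 0.03, -0.12 and 0.04, and controls 1 and 2 correlated best with another number. With the replicate number as a block, 11499 genes were called against 11623 without it, and the log2 fold changes were 1.79 for Trp53, -0.03 for Mdm2 and -0.74 for Mdm4. Trp63 and Trp73 fell below the filter on low counts, and Trp53 in controls rests on 37 to 77 counts per sample.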
